A study of Xenopus tropicalis with 10 samples.

Results

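The genes described here encode the proteins of the mitochondrial ribosome. They were taken by symbol, as every gene of the deposited table named MRPL or MRPS with a number and at most 1 further letter or copy suffix, and 57 of the 26550 genes met this rule. Of these, 36 carry an MRPL symbol and 21 an MRPS symbol. By the current placement of their products in the mammalian mitochondrial ribosome, 37 belong to the large subunit and 19 to the small subunit. MRPS30 counts with the large subunit in spite of its name. The remaining gene, MRPS36, was named as a small subunit protein, but its product is now known as a component of the alpha-ketoglutarate dehydrogenase complex. Grouped by origin, 37 of the 56 ribosomal proteins have a counterpart in bacterial ribosomes and 19 are named as specific to mitochondrial ribosomes.

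Mitochondria keep a small genome whose protein-coding genes specify core subunits of the respiratory chain and of ATP synthase, and these are translated inside the organelle by a dedicated ribosome. The RNA of that ribosome is transcribed from mitochondrial DNA, whereas all of its proteins are encoded in the nucleus, made in the cytosol and imported. Tissues with a high oxidative demand, such as muscle, carry many mitochondria, and the nuclear genes for mitochondrial ribosomal proteins are transcribed in nearly every cell type.

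RNA was sequenced from tails of the frog Xenopus tropicalis at tadpole stage 40, when an amputated tail can be regrown. In the whole tail group (2 libraries) stands the tail taken off by a first cut, and a second cut made right afterwards on the same tadpoles gave the tissue next to the wound, the group named 0 hpa (2 libraries; hpa stands for hours post amputation). Regenerating tails gave 1 library each at 6 and 15 hpa and 2 libraries each at 24 and 72 hpa. All groups were of 1 species and starting stage, with no drug or genetic change named in the labels, and age-matched uncut controls for 72 hpa were not among the groups. Whether replicates stand for separate tadpoles or pools is not stated in the labels. The p-values below thus rest on differences between libraries that may be technical.

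The deposited values are gene reads divided by a size factor per library, called normalised reads below. Recovered gene reads ran from 15966579 (72 hpa replicate 2) to 128768239 (6 hpa), and the 15 hpa library held 121670034. In the deepest library 3 reads were worth 0.852 normalised reads, and in the shallowest 7.29. Every member had at least 84 reads in its poorest library (median over members 537), and all 57 passed the filter on low values (10 or more normalised reads in 2 or more libraries), as did 17896 genes in all. Changes were tested with limma on log2(normalised reads + 1) in 1 fit of all 10 libraries. The 6 and 15 hpa libraries stand alone in their groups and were assigned the spread of the duplicated groups. They are the deepest of the series, and whether each pools replicates is not known. If so, the assigned spread would not be theirs.

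Mitochondrial ribosomal protein genes were transcribed at every stage of regeneration, and their group means spanned less than those of the median tested gene. The ratio of the highest to the lowest library was between 1.42 and 3.04 over the 57 members, with a median of 1.86. The ratio of the highest to the lowest group mean was between 1.19 and 1.90, with a median of 1.41. Expressed as the range of log2 group means, the median member spanned 0.50, against 0.97 for the median of all tested genes. The 2 sets were not matched for read level. Members had means of 190 to 2680 normalised reads, whereas the filter admitted genes with 10 or more in 2 libraries. How much of the difference in span goes with read level was not tested. Since the values are not divided by transcript length, they are compared below between libraries of a gene and not between genes.

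No member passed the limma test in any comparison or over the 6 groups together. The limma F test over all groups called 0 of 57 members, beside 2.27% of all tested genes (407), and 1 member (1.75%) had an unadjusted p under 0.05, beside 21.3% of all genes. DESeq2's likelihood ratio test likewise called 0 members, beside 19.6% of all tested genes. In all 6 comparisons described below, edgeR's quasi-likelihood test called 0 members and limma called 0. The median standard error of a member's log2 fold change between duplicated groups was 0.26, and the median 95% interval reached 0.61 to either side (0.75 for the single libraries at 6 and 15 hpa). This interval is that of 1 gene without adjustment, whereas a call needed an adjusted p under 0.05 over all tested genes. A difference smaller than the interval was not detectable in a typical member at this replication. A larger one could also go uncalled. MRPS24 at 72 against 0 hpa had a log2 fold change of -0.83 and was not called (limma adjusted p = 0.066).

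**Figure D1:**
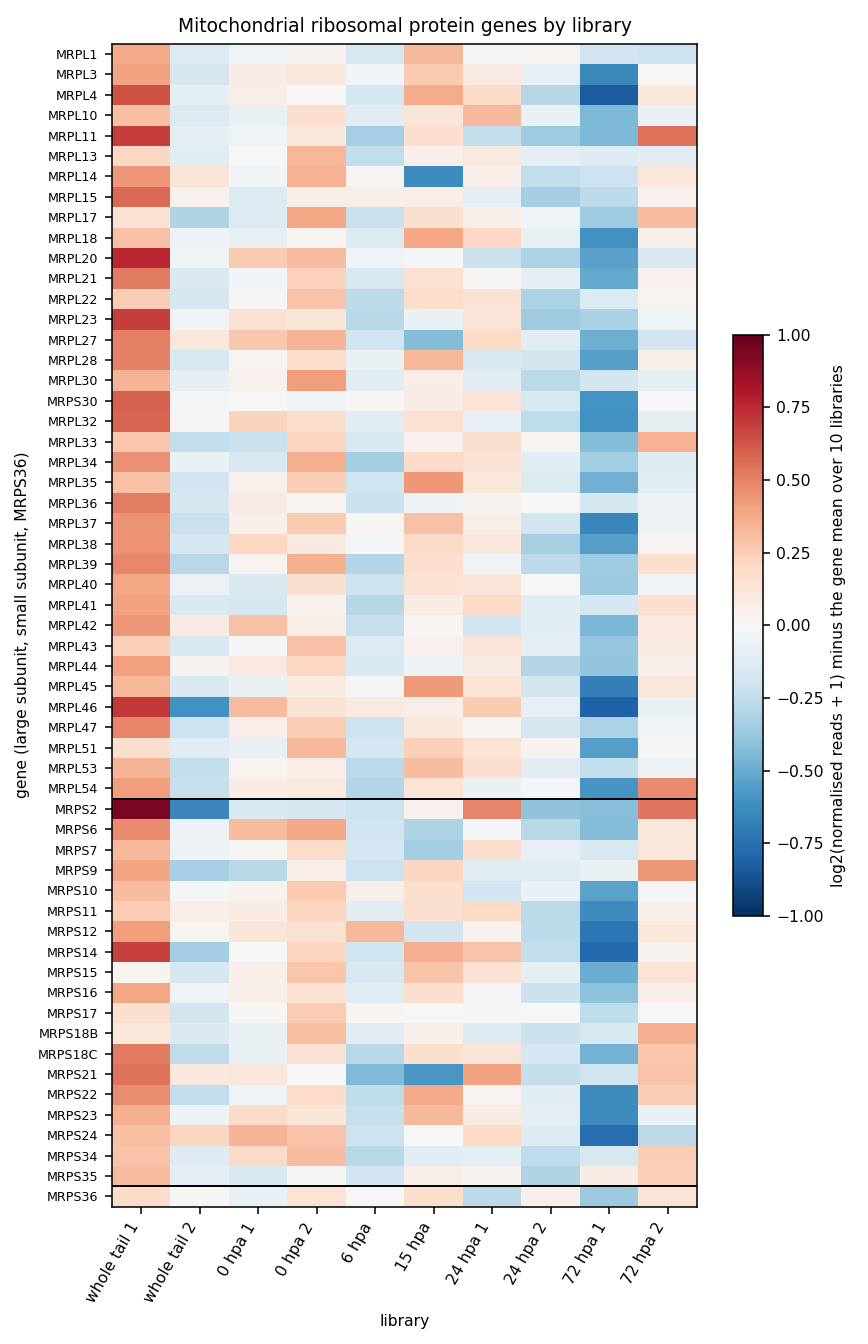
Each row is 1 of the 57 members (large subunit at the top, small subunit below, MRPS36 last), each column a library, and the colour gives log2(normalised reads + 1) minus the gene's mean over the 10 libraries. Most rows share the same pattern over the columns: whole tail replicate 1 is above the gene mean in 57 rows and 72 hpa replicate 1 in 1 row.

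What the members shared was a common level per library. The median member lay 0.40 log2 units above its own mean in whole tail replicate 1 and at -0.13 in replicate 2. Its position was 0.02 and 0.18 in the 0 hpa replicates, -0.18 after 6 h and 0.15 after 15 h. The 24 hpa replicates lay at 0.08 and -0.14, and those of 72 hpa at -0.43 and 0.05. Whole tail replicate 1 was thus the highest library and 72 hpa replicate 1 the lowest, and the replicates of both groups lay far apart. From the lowest to the highest library the member median spanned 0.83. The division by size factors itself holds the median of all genes nearly level between libraries, so these values are relative to the typical gene. Many single members had their extremes in these same libraries: 39 had their highest value in whole tail replicate 1 and 40 their lowest in 72 hpa replicate 1. The matching shares of all genes are not given here. Once the library's member median was taken off, the standard deviation of log2 values over libraries dropped from 0.27 to 0.15 for the median member. That median comes from the same members, so part of the drop was built in. No other gene list was put through this step, so the drop is not a test of shared movement.

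In the whole tail and at 72 hpa, replicates lay further apart than the 6 group means. The pooled replicate standard deviation of the member median was 0.27 log2 units, and the group means spanned 0.34 from the lowest to the highest. In the whole tail, 57 of 57 members were higher in replicate 1 (median difference 0.49), where 50.4% of all tested genes were. At 24 hpa, 50 were higher in replicate 1 (median difference 0.25; 50.6% of all genes). At 72 hpa, 56 were higher in replicate 2, and replicate 1 minus replicate 2 had a median of -0.51; 52.8% of all genes were higher in replicate 1. At 0 hpa, 45 were higher in replicate 2, with a median replicate 1 minus replicate 2 of -0.16, where 51.8% of all genes were higher in replicate 1. The members therefore moved together between replicates that carry the same label, and other gene lists described below moved with them. Cytosolic ribosomal proteins had medians of 0.22, -0.36, 0.12 and -0.24 for replicate 1 minus replicate 2 (whole tail, 0, 24 and 72 hpa). For nucleolar ribosome biogenesis genes these were 0.28, -0.38, 0.34 and -0.45. Regulators of mitochondrial biogenesis went the other way at 0 hpa (0.30). The direction of these replicate shifts was thus not particular to the members.

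Transcripts of skeletal muscle, a tissue rich in mitochondria, differed between some of the same libraries. The 20 measured genes of the muscle list took 1.80% and 0.30% of gene reads in the whole tail replicates, 0.735% and 0.714% at 0 hpa, 1.22% after 6 h, 1.07% after 15 h, 1.20% and 0.477% after 24 h, and 0.374% and 1.75% after 72 h. In the whole tail, at 24 hpa and at 72 hpa, the replicate with the larger muscle share was the one with the higher members, while at 0 hpa the muscle shares were close. The 6 hpa library had the third largest muscle share and the second lowest member median, so the order of the libraries was not the same for both. Erythroid genes, which mark red blood cells, took 0.564% and 0.463% of gene reads in the whole tail, 1.04% and 3.56% at 0 hpa, 0.751% after 6 h, 0.371% after 15 h, 0.461% and 0.317% after 24 h, and 0.110% and 0.263% after 72 h. In all 4 duplicated groups, 0 hpa included, the replicate with the larger erythroid share was the one with the higher member median. The order of the libraries again differed: 0 hpa replicate 2 had the largest erythroid share (3.56%), whereas whole tail replicate 1, highest in the members, had 0.564%. Leukocyte genes took 0.010% to 0.078%, neuronal genes 0.006% to 0.029%, epidermal genes 1.64% to 4.05% and notochord genes 0.227% to 0.584%, and no measured gene of these lists was at 0 in every library. Epidermal and notochord shares were larger in the replicate with the lower member median in the whole tail, at 0 hpa and at 72 hpa. The same held for neuronal shares at 0, 24 and 72 hpa and for leukocyte shares at 24 and 72 hpa. The part of tissue makeup in the members' levels was not tested. In tissue libraries of this kind, fewer cells of a type and less RNA per cell cannot be told apart.

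**Figure D2:**
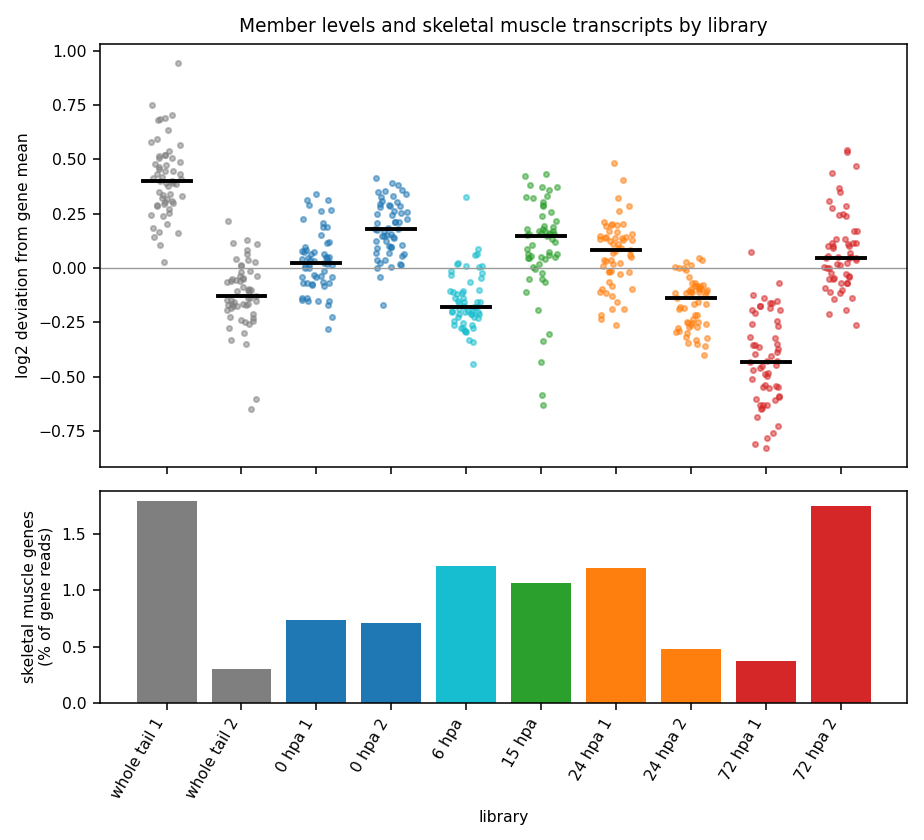
The upper panel plots for each library the 57 members as points, on the scale of log2 deviation from the gene mean, with their median as a bar; the lower panel gives the percentage of gene reads from skeletal muscle genes. The median runs from -0.43 in 72 hpa replicate 1 to 0.40 in whole tail replicate 1, and within the whole tail, 24 hpa and 72 hpa the replicate with more muscle reads has the higher median.

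Together the members took 0.255% and 0.185% of gene reads in the whole tail, 0.190% and 0.218% at 0 hpa, 0.193% after 6 h, 0.232% after 15 h, 0.211% and 0.192% after 24 h, and 0.162% and 0.210% after 72 h. Group means were 0.220% ± 0.050 (SD, n = 2) in the whole tail, 0.204% ± 0.020 (SD, n = 2) at 0 hpa, 0.201% ± 0.014 (SD, n = 2) at 24 hpa and 0.186% ± 0.034 (SD, n = 2) at 72 hpa. The ranges of the 4 duplicated groups overlapped. An exact two-sided permutation test of 2 against 2 libraries cannot give a p below 0.333, and it gave p = 1 for 0 hpa against the whole tail, p = 1 for 24 against 0 hpa, p = 0.667 for 72 against 0 hpa and p = 0.667 for 72 against 24 hpa.

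Setting 0 hpa against the whole tail compares the tissue beside the wound with the tail that was removed. Both came from the same tadpoles, and the main fit took their libraries as unpaired. The median log2 fold change of the members was -0.04 (all tested genes -0.00), and it became 0.23 without whole tail replicate 1 and -0.30 without replicate 2, so its direction rested on single libraries. In the fit of all libraries 37 members had a lower fitted value, beside 50.1% of all genes, and 20 a higher one. The extremes were -0.35 and 0.24. Limma called 0 members, beside 0.0% of all tested genes, and the smallest adjusted p among members was 0.83; 0 members had an unadjusted p under 0.05, beside 7.95% of all genes. DESeq2 called 0 members, beside 1.82% of all genes. At 0 hpa, 1 member lay above both whole tail libraries and 0 lay below both, beside 18.0% and 17.9% of all genes, so nearly all members overlapped. MRPL15 (-0.35, SE 0.23), a large subunit protein with a bacterial counterpart, MRPS30 (-0.31, SE 0.28) and MRPS2 (-0.31, SE 0.59) had the lowest fold changes. MRPS15 (0.24, SE 0.24), MRPL17 (0.20, SE 0.30) and MRPL46 (0.18, SE 0.43) had the highest. The limma adjusted p of these 6 was between 0.83 and 0.98.

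At 6 hpa nearly all members had fewer normalised reads than at 0 hpa. The median log2 fold change was -0.28 against 0.01 for all tested genes, and 54 of 57 fitted values were lower, beside 49.1% of all genes. Like medians were seen in the large subunit (-0.28), the small subunit (-0.28), the proteins with a bacterial counterpart (-0.28) and the mitochondria-specific ones (-0.28). None of the members passed the limma test (0 called, beside 0.0% of all tested genes), with a smallest adjusted p of 0.88 and 0 members at an unadjusted p under 0.05, beside 5.83% of all genes; DESeq2 called 0, beside 0.805% of all genes. In the single 6 hpa library, 47 members (82.5%) lay below both 0 hpa libraries and 3 (5.26%) above both, beside 34.8% and 35.0% of all genes. Members of a library moved together, so they are not separate observations of a condition and these shares carry no test. The lowest fold changes were those of MRPS6 (-0.55, SE 0.33), MRPS34 (-0.52, SE 0.27) and MRPS24 (-0.52, SE 0.26). MRPS12 (0.19, SE 0.36), MRPL15 (0.10, SE 0.29) and MRPS30 (0.03, SE 0.34) were the 3 members above 0. Replicates within a duplicated group differed by a median of between 0.16 and 0.51 log2 units, a span that holds the shift of this single library. The size of the shift also depended on the scaling. With each library scaled to its total gene reads, the member median was -0.11 (all tested genes 0.18). The members' share of gene reads at 6 hpa (0.193%) lay between those of the 0 hpa libraries (0.190% and 0.218%).

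At 15 hpa the member median of normalised reads was close to that of 0 hpa, and single members lay on both sides of it. The median log2 fold change against 0 hpa was 0.05 (all tested genes -0.02). With each library scaled to its total gene reads it was 0.23 (all tested genes 0.16). On normalised reads it was -0.05 without 0 hpa replicate 1 and 0.14 without replicate 2. In the fit of all libraries 35 members were higher and 22 lower, beside 51.3% of all genes lower. Limma called 0 members, beside 0.363% of all tested genes, with a smallest adjusted p of 0.30 and 2 members (3.51%) at an unadjusted p under 0.05, beside 13.5% of all genes; DESeq2 called 0, beside 4.63% of all genes. Below both 0 hpa libraries lay 16 members (28.1%) and above both 24 (42.1%), beside 38.4% and 36.5% of all genes. The range was the widest of the 6 comparisons, from -0.79 for MRPL14 to 0.41 for MRPL18.

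The 2 members with an unadjusted p under 0.05 at 15 hpa are both large subunit proteins with a bacterial counterpart. MRPL14 sits at the face where the subunits join and is bound by a factor that keeps them apart during assembly in human cells. MRPL14 had 1443 and 1170 normalised reads in the whole tail, 1047 and 1365 at 0 hpa, 1085 after 6 h, 691 after 15 h, 1123 and 902 after 24 h, and 927 and 1159 after 72 h. The 15 hpa library was the lowest of the 10, and the 0 hpa libraries overlapped those of the whole tail, 24 hpa and 72 hpa. The log2 fold change of MRPL14 at 15 against 0 hpa was -0.79 (SE 0.29, limma adjusted p = 0.30). MRPL27, whose bacterial counterpart reaches into the peptidyl transferase centre, had 917 and 700 normalised reads in the whole tail, 778 and 819 at 0 hpa, 562 after 6 h, 477 after 15 h, 740 and 598 after 24 h, and 460 and 564 after 72 h. All libraries from 6 hpa on were below both 0 hpa libraries, with the lowest values at 72 hpa replicate 1 and at 15 hpa. Its log2 fold change was -0.74 (SE 0.29, limma adjusted p = 0.33) at 15 hpa and -0.65 (SE 0.24, limma adjusted p = 0.15) at 72 hpa.

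MRPS6 (-0.65, SE 0.33) and MRPS21 (-0.64, SE 0.35), small subunit proteins with bacterial counterparts, also had low values at 15 hpa, while MRPL45 (0.41, SE 0.37), which in mammals holds the ribosome to the inner membrane, and MRPL4 (0.34, SE 0.45) were among the highest. MRPS21 had 1497 and 1110 normalised reads in the whole tail, 1113 and 1031 at 0 hpa, 757 after 6 h, 686 after 15 h, 1363 and 874 after 24 h, and 898 and 1254 after 72 h. The 6 and 15 hpa libraries were the 2 lowest, and the duplicated groups overlapped. None of these passed the limma test (adjusted p between 0.45 and 0.81 at 15 hpa).

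**Figure D3:**
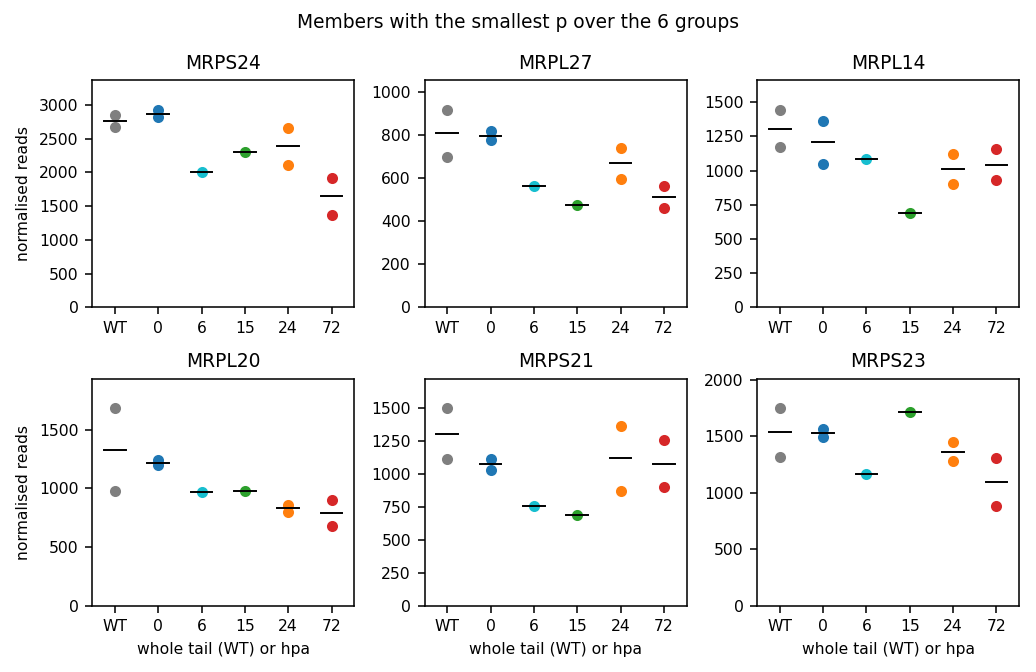
Normalised reads (linear axis from 0) of the 6 members with the smallest F test p are plotted by group, with a point per library and a bar at the group mean; WT is the whole tail and the numbers are hours post amputation. MRPS24 is lowest in the 72 hpa libraries (1361 and 1922) and MRPL14 in the 15 hpa library (691), while replicates of MRPL20 and MRPS21 lie far apart in the whole tail.

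At 24 hpa the median log2 fold change of the members against 0 hpa was -0.14 (all tested genes -0.01). Of the 57 fitted values 48 were lower, beside 50.5% of all genes. The size of the median rested on single libraries: it was -0.27 without 24 hpa replicate 1, -0.04 without 24 hpa replicate 2, -0.25 without 0 hpa replicate 1 and -0.07 without 0 hpa replicate 2. At this time limma called 0 members, beside 0.967% of all tested genes, with a smallest adjusted p of 0.38 and 0 members at an unadjusted p under 0.05, beside 16.8% of all genes; DESeq2 called 0, beside 6.19% of all genes. In 20 members (35.1%) both 24 hpa libraries lay below both 0 hpa libraries and in 0 above, beside 25.8% and 26.3% of all genes. With each library scaled to its total gene reads, the median of all tested genes at 24 against 0 hpa moved by over 0.1 and the member median became 0.00. Such a scaling shifts all genes of a library nearly alike. The member median was therefore bound to stay about 0.13 below that of all genes, which is no check of the scaling. The lowest fold changes were those of MRPL20 (-0.55, SE 0.28), MRPS6 (-0.49, SE 0.27) and MRPS34 (-0.42, SE 0.22), and the highest those of MRPS2 (0.20, SE 0.59), MRPL41 (0.11, SE 0.25) and MRPL33 (0.10, SE 0.31).

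MRPL20, whose bacterial counterpart binds early in large subunit assembly, had 1680 and 973 normalised reads in the whole tail, 1195 and 1237 at 0 hpa, 965 after 6 h, 981 after 15 h, 859 and 800 after 24 h, and 683 and 902 after 72 h. Both libraries of 24 hpa and both of 72 hpa lay below every library of the earlier groups. The log2 fold change against 0 hpa was -0.55 at 24 hpa (SE 0.28, limma adjusted p = 0.38) and -0.63 at 72 hpa (SE 0.28, limma adjusted p = 0.23).

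At 72 hpa the mean of the library medians was the lowest of the 6 groups, at -0.19 beside -0.18 at 6 hpa. The median log2 fold change against 0 hpa was -0.29 (all tested genes 0.02), and 52 of 57 fitted values were lower, beside 48.5% of all genes. Since the members of a library moved together, this count is not one of separate observations. Limma called 0 members, beside 6.4% of all tested genes, the comparison with the most calls of the 6; the smallest adjusted p among members was 0.066, and 2 members (3.51%) had an unadjusted p under 0.05, beside 24.1% of all genes. DESeq2 called 1 member, MRPS24, as lower, beside 13.1% of all genes. In 24 members (42.1%) both 72 hpa libraries lay below both 0 hpa libraries and in 1 (1.75%) above, beside 26.6% and 27.0% of all genes. The large subunit had a median of -0.31 and the small subunit of -0.26, and proteins with a bacterial counterpart (-0.32) lay beside the mitochondria-specific ones (-0.29). The 72 hpa replicates disagreed: without replicate 1 the member median was -0.05, and without replicate 2 it was -0.53. With each library scaled to its total gene reads, the member median of all libraries was -0.15 (all tested genes 0.15).

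MRPS24 came nearest to a call. It is the mitochondrial counterpart of bacterial S3, a small subunit protein at the entrance of the messenger RNA channel. MRPS24 had 2848 and 2678 normalised reads in the whole tail, 2925 and 2814 at 0 hpa, 2002 after 6 h, 2302 after 15 h, 2653 and 2113 after 24 h, and 1361 and 1922 after 72 h. The 72 hpa libraries were the 2 lowest of the 10, and every library from 6 hpa on lay below the 4 whole tail and 0 hpa libraries. Group means were 2869 ± 78.3 (SD, n = 2) at 0 hpa and 1642 ± 397 (SD, n = 2) at 72 hpa. The log2 fold change of MRPS24 was -0.83 (SE 0.22, limma adjusted p = 0.066), and DESeq2 gave -0.81 with an adjusted p of 0.026. Against the whole tail it was -0.77 (SE 0.22, limma adjusted p = 0.065). Over the 6 groups the F test of MRPS24 gave an adjusted p of 0.23 with limma. MRPS24 was also the 1 member that the authors' deposited table flags as changed, out of 57 (1.75%), beside 19.2% of the whole table; no source used here gives the test or threshold behind that flag.

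Other members at the low end at 72 hpa were MRPL46 (-0.67, SE 0.43, limma adjusted p = 0.39), a protein of the central protuberance of the large subunit, and MRPL32 (-0.55, SE 0.28, limma adjusted p = 0.27), which in mice and yeast is processed by a protease of the inner membrane before it joins the ribosome. MRPL46 had 1761 and 711 normalised reads in the whole tail and 615 and 1028 at 72 hpa, so that its whole tail replicates lay further apart than its group means. At the high end were MRPS9 (0.29, SE 0.29), MRPS35 (0.23, SE 0.21) and MRPS2 (0.21, SE 0.59). MRPS9 had 2031 and 1231 normalised reads in the whole tail, 1276 and 1625 at 0 hpa, 1338 after 6 h, 1800 after 15 h, 1429 and 1434 after 24 h, and 1476 and 2095 after 72 h. The 72 hpa libraries lay above those of 24 hpa and overlapped those of the whole tail and 0 hpa. MRPS2, the member with the fewest reads, had 346 and 114 normalised reads in the whole tail, 161 and 159 at 0 hpa, 156 after 6 h, 185 after 15 h, 252 and 136 after 24 h, and 133 and 260 after 72 h, which is the largest ratio between libraries of any member.

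Between 24 and 72 hpa the median log2 fold change of the members was -0.13 (all tested genes -0.01). Of the 57 fitted values 46 were lower, beside 51.2% of all genes. Here limma called 0 members, beside 0.0726% of all tested genes, with a smallest adjusted p of 0.42 and 1 member, MRPS24, at an unadjusted p under 0.05 (-0.55, SE 0.22), beside 10.7% of all genes; DESeq2 called 0, beside 3.01% of all genes. Below both 24 hpa libraries lay 9 members (15.8%) and above both 2 (3.51%), beside 21.2% and 21.4% of all genes. After MRPS24 the lowest fold changes were those of MRPL46 (-0.53, SE 0.43) and MRPS14 (-0.39, SE 0.41), and the highest those of MRPL11 (0.34, SE 0.37), MRPS9 (0.30, SE 0.29) and MRPS35 (0.29, SE 0.21). The direction of the member median rested on 72 hpa replicate 1, without which it was 0.11.

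With the whole tail as the reference in place of 0 hpa, the member medians were -0.30, 0.00, -0.18 and -0.34 after 6, 15, 24 and 72 h. Limma called 0 members in each of these, beside 0.0%, 0.676%, 1.11% and 9.29% of all tested genes, with 0, 3, 0 and 4 members at an unadjusted p under 0.05, beside 10.3%, 13%, 17.6% and 27.4% of all genes. The members lowest at 72 hpa were again led by MRPS24, followed by MRPL20 (-0.70, SE 0.28, limma adjusted p = 0.16) and MRPL27 (-0.65, SE 0.24, limma adjusted p = 0.12).

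**Figure D4:**
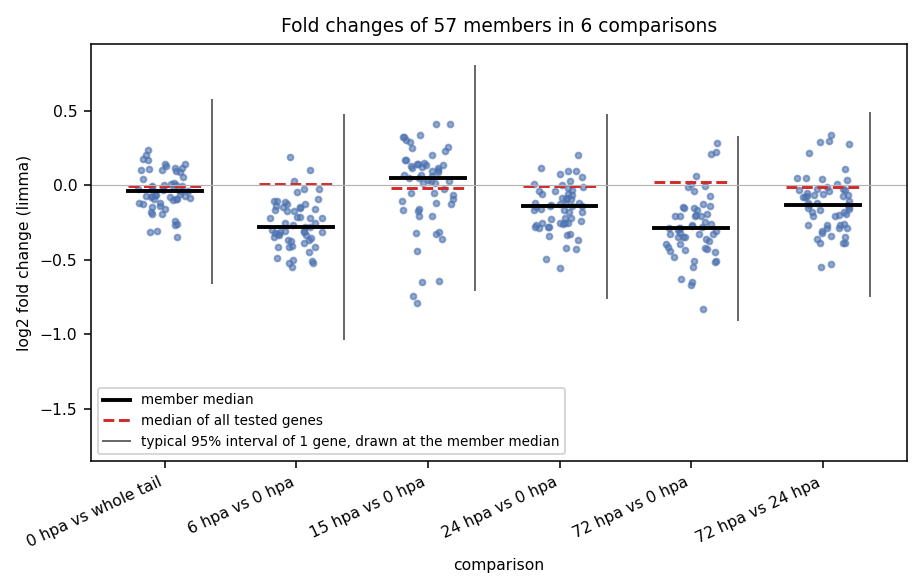
Points are limma log2 fold changes of the 57 members in each of the 6 comparisons, with the member median as a black bar, the median of all tested genes as a dashed line and, beside them, a typical 95% interval of 1 gene drawn at the member median. Member medians run from -0.29 (72 against 0 hpa) to 0.05 (15 against 0 hpa). The interval of 1 gene spans 0 in each comparison, but it does not measure the uncertainty of the member median.

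Among large subunit proteins chosen for their function, MRPL3, which lies near the peptidyl transferase centre in bacteria, had 2086 and 1402 normalised reads in the whole tail, 1664 and 1696 at 0 hpa, 1545 after 6 h, 1889 after 15 h, 1667 and 1489 after 24 h, and 1010 and 1580 after 72 h. MRPL11, at the base of the stalk that receives translation factors, had 1191 and 689 in the whole tail, 721 and 793 at 0 hpa, 588 after 6 h, 831 after 15 h, 628 and 579 after 24 h, and 540 and 1077 after 72 h. In both genes the highest library was whole tail replicate 1 and the lowest 72 hpa replicate 1, and the 72 hpa libraries lay on both sides of 0 hpa in MRPL11 alone. The mitochondria-specific proteins MRPL37, MRPL38 and MRPL44 were, with MRPS24 and MRPS36, the 5 members with the most reads. MRPL44, mutated in an inherited human cardiomyopathy, had 2916 and 2251 normalised reads in the whole tail, 2348 and 2528 at 0 hpa, 1967 after 6 h, 2117 after 15 h, 2337 and 1789 after 24 h, and 1664 and 2272 after 72 h. MRPL37 had 3262 and 2043 in the whole tail, 2470 and 2862 at 0 hpa, 2409 after 6 h, 2927 after 15 h, 2494 and 2094 after 24 h, and 1523 and 2306 after 72 h. The 72 hpa libraries of MRPL37 and MRPL44 were below both 0 hpa libraries, with log2 fold changes of -0.50 and -0.33 that did not pass the limma test. MRPS30, counted here with the large subunit, had 2709 and 1773 in the whole tail, 1793 and 1742 at 0 hpa, 1807 after 6 h, 1892 after 15 h, 1975 and 1609 after 24 h, and 1191 and 1794 after 72 h. Apart from whole tail replicate 1 and 72 hpa replicate 1, all of its libraries were between 1609 and 1975.

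Among the members with the smallest F test p, MRPL35 had 1464 and 1045 normalised reads in the whole tail, 1233 and 1413 at 0 hpa, 1040 after 6 h, 1612 after 15 h, 1288 and 1085 after 24 h, and 853 and 1103 after 72 h. MRPL42 had 1875 and 1473 in the whole tail, 1701 and 1455 at 0 hpa, 1183 after 6 h, 1409 after 15 h, 1217 and 1284 after 24 h, and 1010 and 1490 after 72 h. The 72 hpa libraries were below both 0 hpa libraries in MRPL35 and overlapped them in MRPL42, and over the 6 groups limma gave adjusted p = 0.52 and 0.60. MRPL38, a protein of the central protuberance, is named for its many reads and not for its F test p. It had 3125 and 2037 in the whole tail, 2644 and 2446 at 0 hpa, 2257 after 6 h, 2610 after 15 h, 2474 and 1820 after 24 h, and 1561 and 2321 after 72 h. Its 72 hpa libraries were below both 0 hpa libraries, and the fitted difference of -0.42 on the log2 scale (SE 0.29) did not pass (limma adjusted p = 0.42).

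In the small subunit, MRPS12, the counterpart of the bacterial protein of the decoding centre, had 1793 and 1369 normalised reads in the whole tail, 1458 and 1491 at 0 hpa, 1684 after 6 h, 1175 after 15 h, 1377 and 1118 after 24 h, and 811 and 1441 after 72 h. It was the highest of the members in the 6 hpa comparison and had a log2 fold change of -0.33 at 15 hpa, neither passing the limma test. MRPS7, a protein of the head of the small subunit, had 2362 and 1826 in the whole tail, 1911 and 2149 at 0 hpa, 1669 after 6 h, 1495 after 15 h, 2117 and 1786 after 24 h, and 1688 and 2044 after 72 h. Its 15 hpa library was the lowest of the 10. MRPS23, a mitochondria-specific protein, had 1746 and 1320 in the whole tail, 1561 and 1489 at 0 hpa, 1168 after 6 h, 1716 after 15 h, 1447 and 1278 after 24 h, and 882 and 1305 after 72 h. Its 24 and 72 hpa libraries were below both 0 hpa libraries, and the fitted 72 hpa difference of -0.51 on the log2 scale (SE 0.24) did not pass (limma adjusted p = 0.25). MRPS22 and MRPS34, mitochondria-specific proteins in which human mutations cause mitochondrial disease, are described side by side. MRPS22 had 1315 and 1533 at 0 hpa, 1134 at 6 hpa and 1754 at 15 hpa, whereas MRPS34 had 1943 and 2107 at 0 hpa, 1408 at 6 hpa and 1579 at 15 hpa. Both were below 0 hpa at 6 hpa, while at 15 hpa MRPS22 was above both 0 hpa libraries and MRPS34 below both, a difference that was not tested. MRPS18C, counted here with the proteins that have a bacterial counterpart, and its relative MRPS18B, counted with the mitochondria-specific ones, had log2 fold changes of -0.14 and -0.00 at 72 against 0 hpa. MRPS36, the gene whose product is no longer counted as ribosomal, had 3027 and 2684 normalised reads in the whole tail, 2533 and 2928 at 0 hpa, 2673 after 6 h, 3013 after 15 h, 2217 and 2751 after 24 h, and 2053 and 2921 after 72 h, and its log2 fold changes lay between -0.15 and 0.15 in the 6 comparisons.

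The other genes of the pathway were taken from lists of what the mitochondrial ribosome needs and what it serves, and 2 of their genes passed the limma test in any of the 6 comparisons, ESRRA and NDUFC1. Mitoribosome assembly factors (23 tested) had medians of 0.04, 0.12, 0.06 and 0.08 at 6, 15, 24 and 72 against 0 hpa, and translation factors of the organelle (13 tested) had -0.04, 0.30, 0.20 and 0.27. Genes for mitochondrial DNA and RNA upkeep (16 tested) had 0.04, 0.29, 0.22 and 0.10, and tRNA synthetases of the organelle (10 tested) had -0.18, 0.11, -0.07 and -0.19. These lists had 0 limma and 0 edgeR calls in each of the 6 comparisons, with at most 2 genes of a list at an unadjusted p under 0.05. These 2 were translation factors at 15 hpa (15.4%, beside 13.5% of all genes) and genome and RNA genes at 72 hpa (12.5%, beside 24.1%). DESeq2 called 1 assembly factor (4.35%) higher at 15 hpa, beside 4.63% of all genes in either direction. It called 2 genome and RNA genes (12.5%) higher at 72 hpa, beside 13.1% of all genes in either direction. The genes of protein import into mitochondria (31 tested), on which the members depend, had medians of -0.17, 0.10, -0.14 and -0.41. Limma and edgeR called 0 of them. At 72 hpa 5 (16.1%) had an unadjusted p under 0.05 with limma, beside 24.1% of all genes, and DESeq2 called 3 (9.68%) lower, beside 13.1% of all genes in either direction.

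Respiratory chain and ATP synthase genes encoded in the nucleus (61 tested), whose products assemble with those made on the mitochondrial ribosome, had medians of -0.30, -0.09, -0.29 and -0.57 at 6, 15, 24 and 72 against 0 hpa. At 72 hpa limma and edgeR each called 1 of the 61 (1.64%) lower and DESeq2 3 (4.92%), where limma called 6.4% of all genes and DESeq2 13.1%. At an unadjusted p under 0.05 with limma were 19 (31.1%), beside 24.1% of all genes. The gene that limma called was NDUFC1, an accessory subunit of complex I, with 1744 and 1691 normalised reads at 0 hpa and 697 and 967 at 72 hpa and a log2 fold change of -1.06 (SE 0.23; adjusted p = 0.040 with limma). The 72 hpa libraries were the lowest of the 10, just below 24 hpa replicate 2 with 989. The call of NDUFC1 was lost with no filter on low values (adjusted p = 0.090), with the whole tail as the reference (0.062), and when either replicate of the whole tail, 0 hpa or 72 hpa was left out (between 0.062 and 0.19). With the replicate number as a block, limma gave an adjusted p of 0.054. By library, the medians of the import and respiratory lists were 0.42 and 0.33 in whole tail replicate 1 and -0.58 and -0.65 in 72 hpa replicate 1, the libraries where the members were also highest and lowest.

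Cytosolic ribosomal protein genes (63 tested), the counterparts of the members outside the organelle, had medians of -0.32, -0.14, -0.02 and 0.19 at 6, 15, 24 and 72 against 0 hpa, and genes of ribosome biogenesis in the nucleolus (25 tested) had 0.38, 0.73, 0.67 and 0.28. Limma and edgeR called 0 genes of both lists in the 6 comparisons. With the whole tail as the reference, limma called 1 of the 25 biogenesis genes higher at 72 hpa (adjusted p = 0.025), beside 9.29% of all genes. With that reference, 23 biogenesis genes had an unadjusted p under 0.05 at 24 hpa, beside 17.6% of all genes. At 15 and at 24 hpa against 0 hpa, 15 of the 25 biogenesis genes had an unadjusted p under 0.05 with limma, beside 13.5% and 16.8% of all genes. DESeq2 called 1, 2 and 2 biogenesis genes higher at 15, 24 and 72 hpa, and 1 cytosolic ribosomal protein gene lower at 15 hpa and 1 higher at 72 hpa, beside 4.63%, 6.19% and 13.1% of all genes after 15, 24 and 72 h. At 72 hpa the members' median of -0.29 thus stood beside 0.19 for cytosolic ribosomal proteins, and no test of that difference was run.

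**Figure D5:**
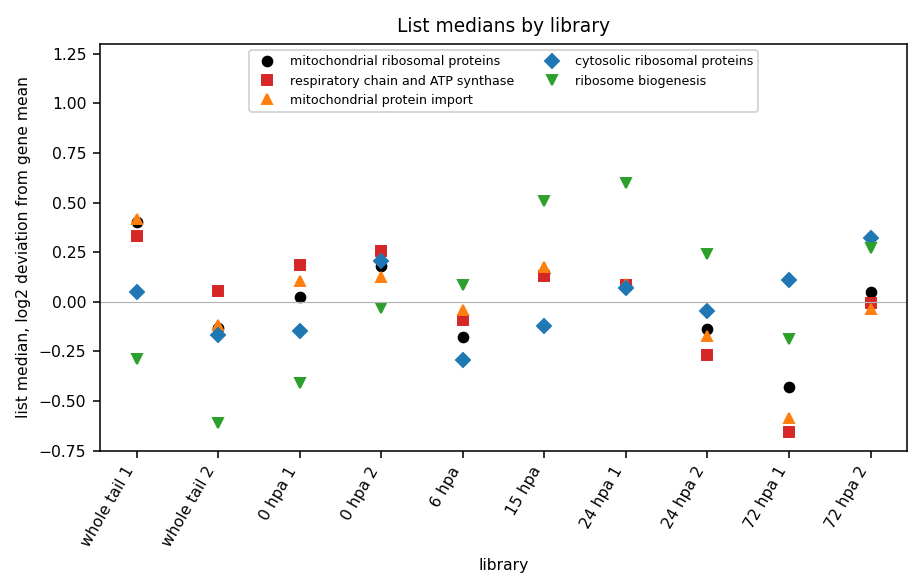
For each library the median log2 deviation from the gene mean is plotted for the members and 4 other gene lists. In 72 hpa replicate 1 the members (-0.43), protein import (-0.58) and respiratory chain genes (-0.65) lie lowest, while cytosolic ribosomal proteins lie at 0.11.

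Among regulators of mitochondrial biogenesis (10 tested), ESRRA, a nuclear receptor that drives nuclear genes of oxidative metabolism in mammals, was called lower at 72 hpa by limma, edgeR and DESeq2. DESeq2 called 3 of the 10 lower at 72 hpa (ESRRA, PPARGC1A and ESRRG) and 2 at 24 hpa (ESRRA and PPARGC1A), beside 13.1% and 6.19% of all genes in either direction. ESRRA had 9069 and 8389 normalised reads in the whole tail, 7841 and 4426 at 0 hpa, 6221 after 6 h, 3834 after 15 h, 3237 and 1838 after 24 h, and 1428 and 1786 after 72 h. Both 72 hpa libraries were below every other library, and all libraries from 15 hpa on were below those of the whole tail and 0 hpa. Its log2 fold change was -1.88 (SE 0.34, limma adjusted p = 0.027), a call lost with no filter on low values (adjusted p = 0.091) and when either replicate of 0 or 72 hpa was left out (adjusted p between 0.054 and 0.14). PPARGC1A, its coactivator, had 1912 and 1647 normalised reads in the whole tail, 2631 and 1121 at 0 hpa, 1043 after 6 h, 903 after 15 h, 617 and 333 after 24 h, and 331 and 899 after 72 h, with a log2 fold change of -1.65 at 72 hpa (SE 0.57, limma adjusted p = 0.13; DESeq2 adjusted p = 0.029). GABPA, a subunit of a factor that binds promoters of nuclear genes for mitochondrial proteins in mammals, stayed between 1647 and 1997 normalised reads in all 10 libraries. GABPB1, named for another subunit, did not stay level, with 1646 and 1062 in the whole tail, 1077 and 925 at 0 hpa and 655 and 717 at 72 hpa. Both 72 hpa libraries of GABPB1 were below every other library. Its log2 fold change at 72 against 0 hpa was -0.54 (SE 0.25, limma adjusted p = 0.23), and that of GABPB2 was -0.20 (SE 0.17, limma adjusted p = 0.54). Those of HCFC1, MAX and YY1 were 0.02, 0.02 and -0.17. ESRRG had 556 and 174 normalised reads at 0 hpa and 73.0 and 82.6 at 72 hpa, so its 0 hpa replicates lay far apart. The members' values at 72 hpa were thus measured in libraries in which ESRRA was low, and whether the levels are linked was not tested.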

How the data were processed

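Libraries were made from total RNA with the TruSeq kit, per the labels' protocols. In the submitters' processing notes stand TopHat2 2.0.13, HTSeq, DESeq2, R 3.2.0, Trim Galore 0.3.3 and SAMtools 1.1, with no role given for any. Genome build and annotation: not given in the sources used here. The deposited values are a normalised signal per gene (26550 genes, 10 libraries). Dividing by each library's smallest step gave whole reads for 100% of values at a tolerance of 0.01, so the values are taken as gene reads divided by a size factor per library.

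The pattern for member symbols was matched ignoring case; 57 genes matched. The 17896 genes with 10 or more normalised reads in 2 or more libraries were fitted with limma 3.58.1 (R 4.3.3; trend of variance on mean) on log2(value + 1), with 6 group levels, all 10 libraries and 4 residual degrees of freedom. Fold changes carry the added 1, which shrinks those of genes with few reads. Benjamini-Hochberg adjustment ran over all genes tested, with calls at an adjusted p under 0.05. On the recovered reads, edgeR 4.0.16 called 0, 0, 54, 125, 1006 and 2 genes and DESeq2 1.42.0 called 326, 144, 828, 1108, 2348 and 539 over the 6 comparisons in the order described. The design of the tests was set for this signal and not changed. A planned description of promoter motifs was not run, since no promoter sequences were at hand. The scaling to the members' median was not planned and was added later. The fits were tested on simulated counts. Exact permutation tests and summaries used SciPy 1.17.1 in Python 3.11.15.

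Members named with values are a panel chosen by function, the 3 highest and 3 lowest fold changes per comparison among members with a mean of at least 100 normalised reads, the 10 smallest F test p, and the 5 with most reads. The members and lists were chosen with earlier results of these data known. A list gene matched a row of the same symbol. RefSeq (UCB_Xtro_10.0) holds 77 symbols of the pattern, of which 57 matched; panel genes MRPL12, MRPL24, MRPS5, MRPS27, MRPS18A and MRPS28 are not analysed here. No library was treated as a copy of another, since the chi-square of recovered reads between replicates was 87.4 to 197 per degree of freedom. Alternatives were other scalings, filters, pseudocounts, tools, thinning to 1 depth, another reference group, a block for the replicate number, and fits without each replicate in turn.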

Additional observations from a re-analysis of the deposited data

How the results depend on the processing

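Limits of depth and replication come first. At 15966579 to 128768239 gene reads per library, every member had at least 84 reads in its poorest library, so that the spread between 2 replicates, and the lack of a replicate at 6 and 15 hpa, limited the tests more than counting did. The count of members called was 0 in all 6 comparisons under every alternative run except DESeq2, which called 1 (MRPS24, lower at 72 against 0 hpa). Added after the data had been seen was a scaling of each library to the members' own median. It takes off the members' shared level, so their median at 72 against 0 hpa became 0.005. That 0 members were called under it was therefore largely built in and carries no weight. The limma calls of ESRRA and NDUFC1 were lost under this scaling (adjusted p = 0.055 and 0.21).

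Leaving out each replicate in turn gave member medians from -0.30 to 0.23 for 0 hpa against the whole tail (0.23 without whole tail replicate 1), and, against 0 hpa, -0.36 to -0.19 after 6 h, -0.05 to 0.14 after 15 h, -0.27 to -0.04 after 24 h and -0.53 to -0.05 after 72 h. For 72 against 24 hpa they ran from -0.38 to 0.11 (0.11 without 72 hpa replicate 1). Under total read scaling the member median against 0 hpa was -0.11, 0.23, 0.00 and -0.15 after 6, 15, 24 and 72 h. That scaling moved the median of all tested genes to 0.18, 0.16, 0.14 and 0.15. Relative to the latter, the member median was -0.28, 0.07, -0.13 and -0.31. These gaps were bound to stay near those of the main fit, since such a scaling shifts all genes of a library nearly alike. They are thus no check of the scaling.

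Calls over all tested genes, which give the background, numbered 0, 0, 65, 173, 1145 and 13 in the 6 comparisons in the order described. Leaving out a replicate gave 0 to 3, 0 to 2, 1 to 21, 0 to 142, 153 to 922 and 1 to 60. With no filter they were 13, 131, 162, 75, 232 and 27, and with DESeq2 326, 144, 828, 1108, 2348 and 539. Scaling by TMM and by total reads both gave 2 for 0 hpa against the whole tail. A pseudocount of 5 gave 34 at 15 hpa and 20 for 72 against 24 hpa, thinning gave 22 at 15 hpa, edgeR gave 2 for 72 against 24 hpa, and the whole tail as the reference gave 121 at 15 hpa. Scaling to the members' median gave 12, 64, 604 and 33 at 15, 24 and 72 against 0 hpa and at 72 against 24 hpa. The cause of these moves was not tested.

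The replicate numbers were not used as pairs in the main fit. Correlations of deviations between the duplicated groups ran from -0.14 to 0.27, with -0.01 for the whole tail and 0 hpa. Such correlations cannot show whether libraries of the same number share tadpoles. With the number as a replicate block, 0 members were called and 45 genes in all for 72 against 24 hpa.

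Fold changes of single members turned sign in some fits, and the lowest and highest values below are those with 1 replicate left out. For 0 hpa against the whole tail, MRPL17 ran from -0.058 (without 0 hpa replicate 2; -0.016 without whole tail replicate 2) to 0.47 (without 0 hpa replicate 1), MRPL46 from -0.48 to 0.83 and MRPS2 from -1.11 to 0.49, both ends set by the whole tail replicates. At 24 against 0 hpa, MRPS2 ran from -0.24 to 0.65 and MRPL41 from -0.041 to 0.27, by the 24 hpa replicates, and MRPL33 from -0.12 to 0.32, by those of 0 hpa. The 72 hpa replicates set the ends for MRPS2 against 0 hpa (-0.27 to 0.69), and against 24 hpa for MRPL11 (-0.16 to 0.84) and MRPS14 (-0.80 to 0.021). With the whole tail as the reference, MRPL15 (-0.24) and MRPS30 (-0.28) turned at 6 hpa, MRPS2 (-0.10) and MRPL41 (-0.080) at 24 hpa and MRPS2 (-0.095) at 72 hpa. The cause was not tested.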

Other observations

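A further 7 genes of the table carry an MRP symbol with the ending -like (MRPS33, MRPL52, MRPL48, MRPL55, MRPS27, MRPS31 and MRPL49, each followed by that ending), and the rule for members does not take them. Their median log2 fold changes were -0.04 for 0 hpa against the whole tail, -0.22, 0.14, -0.19 and -0.16 at 6, 15, 24 and 72 against 0 hpa, and -0.07 for 72 against 24 hpa, with 0 limma calls. Mitoribosomal proteins whose symbols do not follow the MRP pattern (6 tested) had -0.05, -0.25, -0.12, -0.21, -0.28 and -0.05 in the same order, again with 0 limma calls. DESeq2 and edgeR also called 0 in both lists. At 72 against 0 hpa 1 gene of each (14.3% and 16.7%) had an unadjusted p under 0.05 with limma, beside 24.1% of all genes.

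Translation factors of mitochondria (13 tested) had a median of 0.27 at 72 against 0 hpa, where the proteins of the ribosome they act on had -0.29, and 0 genes passed the limma test in either list. Measured against the whole tail instead, the 72 hpa medians were -0.04 for the translation factors, with 7 lower and 6 higher, and -0.34 for the members. The sign of the translation factor median thus depended on the group compared with.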
